A study of Mus musculus with 4 samples.

Results

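The regulators of G protein signalling (RGS) are a family of proteins that share the RGS domain. The members listed for the family here were Rgs1, Rgs2, Rgs3, Rgs5, Rgs10, Rgs12, Rgs14, Rgs16, Rgs18 and Rgs19, and a probe set belonged to a member if that gene was its only symbol. By this rule 9 of the 10 genes had at least 1 probe set, 20 of 22626 probe sets in all, among 12393 named genes; Rgs12 had none and is not analysed here. RNA was measured on 4 arrays, 2 of dendritic cells (DC) after modulation by natural killer T cells (NKT cells) and 2 of immature DC. All were bone marrow DC of the c57bl/6 mouse strain, and per the design text their source was CD11c cells, which carry the integrin that Itgax encodes. The labels give no time, age or dose, and do not say how the NKT cells were applied or removed, or whether the 2 arrays of a group came from separate cultures, so that SE and p-values rest on array-to-array spread alone, whose source may be technical.

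Many receptors for chemokines, lipids and hormones act through heterotrimeric G proteins, whose alpha subunit binds GTP when a receptor is activated. RGS proteins speed up GTP hydrolysis by the alpha subunit and so end the signal, and in leukocytes they are known for setting how long and how strongly cells respond to chemoattractants. Rgs1, Rgs2, Rgs3, Rgs5, Rgs16 and Rgs18 belong to the R4 subfamily, of mostly small proteins, Rgs10, Rgs12 and Rgs14 to the R12 subfamily, and Rgs19 to the RZ subfamily.

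The promoters below are those of the gene with the highest log2 difference, NKT-modulated minus immature DC (Rgs16), of a gene that was lower on its only probe set (Rgs10), of a neighbour of Rgs18 on chromosome 1 (Rgs2) and of the gene whose probe sets disagreed (Rgs3, with both start sites of the table). Each runs 5′ to 3′ on the gene's strand, from 250 bases before to 50 bases after the start site, and comes from RefSeq on GRCm38.p6. The Rgs16 window is chr1:153740103-153740402 on the plus strand and the Rgs10 window is chr7:128418123-128418422 on the minus strand. The Rgs2 window is chr1:144004100-144004399 on the minus strand, and the Rgs3 windows are chr4:62559597-62559896 and chr4:62619422-62619721 on the plus strand. Capitals mark every match, on either strand, to the motifs searched.
Rgs16: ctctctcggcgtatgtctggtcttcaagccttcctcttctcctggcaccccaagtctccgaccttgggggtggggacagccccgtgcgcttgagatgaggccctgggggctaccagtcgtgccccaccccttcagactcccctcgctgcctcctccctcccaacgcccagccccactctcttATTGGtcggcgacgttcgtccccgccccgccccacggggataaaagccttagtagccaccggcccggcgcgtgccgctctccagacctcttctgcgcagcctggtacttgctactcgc
Rgs10: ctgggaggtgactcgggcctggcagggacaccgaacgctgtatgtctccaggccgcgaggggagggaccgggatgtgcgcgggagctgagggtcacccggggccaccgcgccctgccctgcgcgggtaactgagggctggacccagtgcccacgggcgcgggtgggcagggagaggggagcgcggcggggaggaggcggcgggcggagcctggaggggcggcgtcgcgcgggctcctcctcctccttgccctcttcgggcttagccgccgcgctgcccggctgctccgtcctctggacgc
Rgs2: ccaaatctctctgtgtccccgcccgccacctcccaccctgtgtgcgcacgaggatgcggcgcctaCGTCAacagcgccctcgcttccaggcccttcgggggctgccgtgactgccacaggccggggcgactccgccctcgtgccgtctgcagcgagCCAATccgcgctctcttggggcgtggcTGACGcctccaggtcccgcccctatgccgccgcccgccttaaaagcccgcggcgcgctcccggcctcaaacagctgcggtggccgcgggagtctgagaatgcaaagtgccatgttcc
Rgs3, start site 1: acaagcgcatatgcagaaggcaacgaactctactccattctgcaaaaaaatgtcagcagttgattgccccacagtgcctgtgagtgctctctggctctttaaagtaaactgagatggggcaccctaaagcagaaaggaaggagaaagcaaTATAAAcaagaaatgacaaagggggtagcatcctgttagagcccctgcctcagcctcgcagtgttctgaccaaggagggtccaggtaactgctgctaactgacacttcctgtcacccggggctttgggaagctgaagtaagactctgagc
Rgs3, start site 2: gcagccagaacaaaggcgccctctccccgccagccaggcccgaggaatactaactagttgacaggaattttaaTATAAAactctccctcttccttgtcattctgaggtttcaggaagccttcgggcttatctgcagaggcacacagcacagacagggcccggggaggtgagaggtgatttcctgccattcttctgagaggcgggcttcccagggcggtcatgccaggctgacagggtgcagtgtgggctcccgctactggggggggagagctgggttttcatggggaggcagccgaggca

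The motifs were the half-site of the cAMP response element (TGACG), the CCAAT box (CCAAT), the TATA box (TATAAA), the interferon gamma activated site (TTCNNNGAA), the AP-1 site (TGANTCA) and the NF-kB site. No match overlapped another in the windows shown. The Rgs2 window held 2 cAMP response element half-sites, beginning 185 and 67 bases before the start, a motif found in 20.8% of the 32851 windows of the table, and 1 CCAAT box. The Rgs16 window held 1 CCAAT box, which 37.4% of all windows hold. Each Rgs3 window held 1 match to the TATA box, a motif that 13.6% of all windows hold. The Rgs3 matches began 100 bases before start site 1 and 177 bases before start site 2. The Rgs10 window held 0 matches to any of the 6. Interferon gamma activated sites, AP-1 sites and NF-kB sites are held by 8.3%, 7.81% and 4.51% of all windows and by 0 of the 5 shown. A match is a run of letters and is no evidence of binding.

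Array quality was read from median signals, correlations and dendritic cell markers. Median signals were 135.6 and 129 on the NKT-modulated arrays and 145.7 and 158.1 on the immature arrays. Across probe sets, log2 signals had a Pearson correlation of 0.985 within the NKT-modulated group, 0.987 within the immature group and 0.960 to 0.965 between groups. Of the 10 dendritic cell markers none was under 100 on all arrays; Itgax had signals of 5253 and 4643 on the NKT-modulated arrays and 5442 and 5537 on the immature arrays.

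The comparison asked how RNA of NKT-modulated DC differed from that of immature DC. Among the RGS genes Rgs16 and Rgs1 were higher in NKT-modulated DC, whereas Rgs18, Rgs14, Rgs3, Rgs19 and Rgs10 were lower, and Rgs2 and Rgs5 did not pass the threshold on their brightest probe set. The log2 differences on the brightest probe sets spanned -2.90 for Rgs18 to 3.29 for Rgs16. Rgs18 was chosen by its low value here, and the other genes were listed with the results of this comparison known, so the values of all members are a description, no p is given for any of them, and a call means only that limma's adjusted p over all probe sets was under 0.05.

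**Figure D1:**
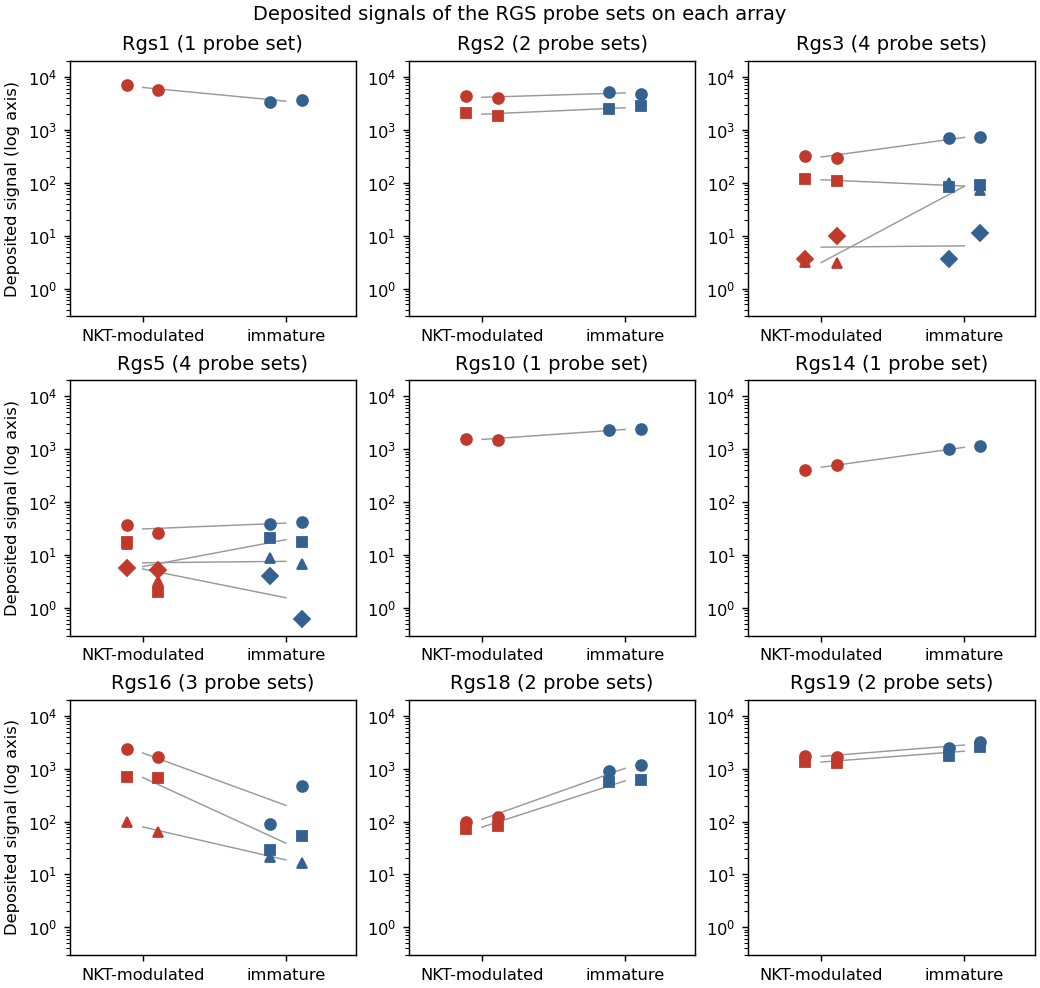
Deposited signals (log axis) of each RGS probe set on the NKT-modulated arrays (red, left) and the immature arrays (blue, right); each symbol shape is 1 probe set and grey lines join the geometric means of the groups. Rgs18 lies near 100 on the NKT-modulated arrays against 557.4 to 1162 on the immature arrays, and the Rgs16 probe sets show the opposite slope.

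Of the 9 measured genes, 7 were called, 2 higher and 5 lower, beside 12.9% of all 12393 genes called, 5.99% higher and 6.9% lower. The median log2 difference of the 9 genes was -0.56, beside -0.04 for all genes. The signals of the 2 groups did not overlap for 9 of 9 genes after normalization, which also held for 56.3% of all genes. By probe set, 13 of 20 were called, 4 higher and 9 lower, beside 11.1% of all probe sets, 5.36% higher and 5.7% lower; the groups did not overlap on 18 of 20, beside 53.5% of all. The call threshold rests on the variance model. Without the intensity trend of the variance, 1045 of all probe sets were called in place of 2501. By the brightest probe set 2 of the 9 genes were then called, Rgs3 and Rgs18. Both dimmer Rgs16 probe sets were called too, though its brightest was not. The counts with an array left out also use the brightest probe set of each gene. Without NKT-modulated replicate 1 and without NKT-modulated replicate 2, 4 genes were called each time, Rgs1, Rgs3, Rgs14 and Rgs18.

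**Figure D2:**
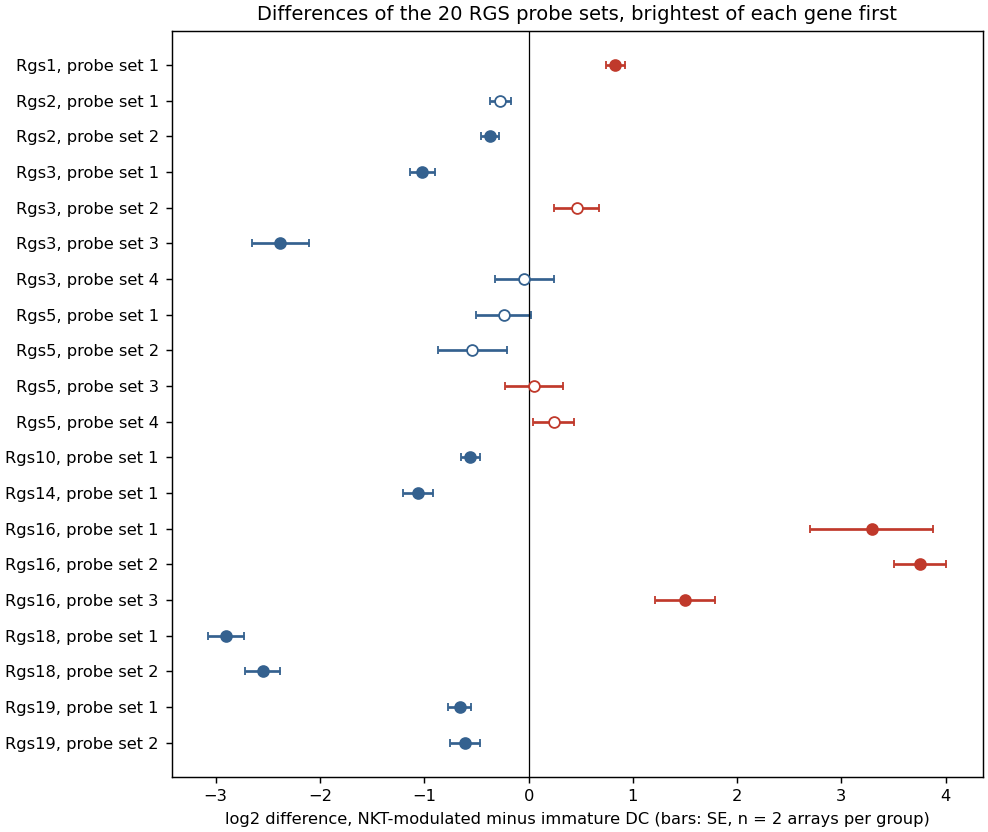
Log2 difference of each of the 20 RGS probe sets, NKT-modulated minus immature DC, with SE bars (n = 2 in each group), red where higher and blue where lower in NKT-modulated DC; filled points are past the threshold and open points are not. Rgs16 lies to the right on all 3 of its probe sets and Rgs18 to the left on both of its own.

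Rgs18, an R4 member known for its expression in platelets and megakaryocytes and for restraining platelet activation, had signals of 100.1 and 121.6 on the NKT-modulated arrays, against 887.3 and 1162 on the immature arrays. Its other probe set read 73.7 and 83.1 on the NKT-modulated arrays, against 557.4 and 620.4 on the immature arrays. Both probe sets put every NKT-modulated array far below every immature array. The log2 differences were -2.90 ± 0.17 and -2.55 ± 0.17 (SE, with n = 2 in each group here and below), or 7.44-fold and 5.85-fold lower on the log2(signal + 16) scale. Within the groups, the arrays differed by 0.34 in NKT-modulated DC and 0.22 in immature DC on the first of these probe sets. By its brightest probe set Rgs18 ranked 1 of 12393 genes from the lowest difference upward, which is the value it was picked for. By the distance of centred log2 values over the 4 arrays, the 3 genes most like Rgs18 were Ppfia4, B3gnt8 and Itln1, at 0.43, 0.58 and 0.63 log2 units. Ppfia4, for example, had signals of 50.7 and 88 on the NKT-modulated arrays, against 543.2 and 587.3 on the immature arrays. With 4 arrays this likeness says little more than that the differences were of similar size.

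Because Rgs18 is known from the platelet lineage, markers of that lineage were read beside it. Of 7 measured megakaryocyte and platelet markers, 1 rose and 0 fell, a share near the 12.9% of all genes called, and none was listed at 0. The summed signal of the list was 5731 and 4963 on the NKT-modulated arrays, against 6193 and 5766 on the immature arrays. Most of this sum was Pf4, and 3 of the 7 markers had signals under 100 on all arrays. Pf4, the chemokine of platelet granules, had signals of 3958 and 3281 in NKT-modulated DC, against 4389 and 3662 in immature DC, a log2 difference of -0.15 ± 0.15 (adjusted p = 0.608, limma). Itgb3, the integrin beta chain of platelets and other cells, was the member that rose, with signals of 36.8 and 35.7 against 5.6 and 7.46 in immature DC and a log2 difference of 1.21 ± 0.23 (adjusted p = 0.0261, limma), a call lost when any of the 4 arrays was left out (adjusted p of its alternatives 0.014 to 0.134). In bulk RNA, fewer cells of a type and less RNA per cell cannot be told apart.

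Rgs16, an R4 member induced in activated lymphocytes and known to act on Gi and Gq alpha subunits, was measured by 3 probe sets. The brightest read 2352 and 1674 on the NKT-modulated arrays, against 88.6 and 460.2 on the immature arrays. The next read 689.6 and 675.3 on the NKT-modulated arrays, against 28.5 and 53.3 on the immature arrays. The dimmest read 100.1 and 62.4 on the NKT-modulated arrays, against 21.4 and 16.5 on the immature arrays. On every probe set both NKT-modulated arrays were above both immature arrays. The log2 differences were 3.29 ± 0.59, 3.75 ± 0.25 and 1.50 ± 0.29. On the brightest probe set the immature arrays lay 2.00 apart on the log2 scale, with immature replicate 2 the higher, and its difference was 2.31 without immature replicate 1 and 4.28 without immature replicate 2. By the brightest probe set Rgs16 ranked 54 of 12393 genes from the highest difference downward. The 3 genes with the most similar pattern were Flt1, Sytl2 and Ctla4, at distances of 0.76, 0.92 and 1.02 log2 units over the 4 arrays. This likeness used the brightest probe set, whose immature arrays lay 2.00 apart, and with 4 arrays it says little. Ctla4 is also one of the T and NKT cell markers read below. Flt1 had signals of 609.0 and 678.3 on the NKT-modulated arrays, against 32.5 and 94.4 on the immature arrays.

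Rgs1, an R4 member that dampens chemokine receptor signals in lymphocytes, had signals of 6948 and 5794 on the NKT-modulated arrays, against 3376 and 3616 on the immature arrays. Its groups did not overlap, and its log2 difference was 0.83 ± 0.09, a 1.78-fold higher level.

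Transcripts of T cells were also read beside the RGS genes. Of 15 measured T and NKT cell markers, 10 rose and 0 fell, beside 5.99% of all genes called higher and 6.9% called lower. None of the markers was listed at 0. The 5 that were not called were Cd2, Cd5, Cd6, Zap70 and Zbtb16. Zbtb16, for example, read 124.9 and 72.7 in NKT-modulated DC against 94.2 and 95.4 in immature DC. The summed signal of the list was 7142 and 5360 on the NKT-modulated arrays, against 1151 and 1160 on the immature arrays. Cd3g, a chain of the T cell receptor complex, had signals of 1401 and 1046 in NKT-modulated DC, against 19 and 15.4 in immature DC, and Gata3, a T cell transcription factor, 825.2 and 812.5 against 16.5 and 18.2. Their log2 differences were 5.26 ± 0.20 and 4.72 ± 0.19 (adjusted p = 9.17e-05 and 1.03e-04, limma). The part of T lineage RNA in the differences of Rgs16, Rgs1 and the other RGS genes was not tested.

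Among markers of other cell types, 0 of 6 NK cell markers were called by limma and 0 had an unadjusted p under 0.05; Prf1, the perforin gene, had the smallest p with a log2 difference of 0.52 ± 0.27 (adjusted p = 0.299, limma). For B cells 1 of 6 rose, Cd79b, a chain of the B cell receptor complex, with signals of 270.1 and 209.8 in NKT-modulated DC against 35.3 and 32 in immature DC. For granulocytes 2 of 9 rose, though 0 without further normalization, Ngp by 0.94 ± 0.19 and S100a8 by 0.62 ± 0.14 (adjusted p = 0.0301 and 0.0446, limma). Both of these calls were lost without immature replicate 1 or when NKT-modulated replicate 1 or 2 was left out, and that of Ngp also without immature replicate 2. For mast cells and basophils 1 of 8 rose, Hdc, the histidine decarboxylase gene, by 3.38 ± 0.22. Of 10 dendritic cell markers Cd86, a costimulatory ligand, rose by 0.85 ± 0.10 and none fell. The single calls among B cell, mast cell and dendritic cell markers were near the 12.9% of all genes called. Signals were under 100 on all arrays for 5 of the 6 NK cell and 3 of the 6 B cell markers. The same held for 6 of the 9 granulocyte and 7 of the 8 mast cell and basophil markers. At such signals a missing call does not show that the RNA was unchanged. Of 6 macrophage and monocyte markers Mertk, a receptor for apoptotic cells, rose by 1.09 ± 0.09, while Cd14 and Fcgr1 fell by 0.54 ± 0.08 and 0.54 ± 0.09. The calls of Cd14 and Fcgr1 were lost when NKT-modulated replicate 1 or 2 was left out, and that of Fcgr1 also without immature replicate 2.

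Rgs2, an R4 member with a preference for Gq alpha subunits, had signals of 4287 and 3989 on the NKT-modulated arrays, against 5238 and 4775 on the immature arrays. Its other probe set read 2116 and 1852 on the NKT-modulated arrays, against 2473 and 2777 on the immature arrays. The groups did not overlap on either probe set, but the gap was small. The log2 differences were -0.27 ± 0.10 and -0.37 ± 0.09, of which only the difference on the dimmer probe set was past the threshold, and only with pseudocounts of 16 and 1 and among probe sets with a mean signal of at least 100. Leaving out any of the 4 arrays ended that call, and a shift of the arrays to a common median brought the brighter probe set to -0.09.

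Rgs3, which is made in several forms of different length, gave readings that depended on the probe set. The brightest had signals of 317.2 and 296.1 on the NKT-modulated arrays, against 699.2 and 743.4 on the immature arrays. Another read 3.14 and 3.04 on the NKT-modulated arrays, against 100.7 and 73.2 on the immature arrays. Another went the opposite way, with 120.0 and 108.2 on the NKT-modulated arrays, against 81.5 and 91.9 on the immature arrays. The dimmest stayed at or below 11.3 on all 4 arrays. The log2 differences of these 4 probe sets were, in that order, -1.02 ± 0.12, -2.38 ± 0.27, 0.46 ± 0.22 and -0.04 ± 0.28, and the first 2 were past the threshold. The size of the second depends on the pseudocount, since its NKT-modulated signals lie below it: it was -4.38 with a pseudocount of 1 and -1.14 with 64. Averaged over the 4 probe sets the difference was -0.74. Which Rgs3 transcripts each probe set reads was not tested.

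Rgs5, an R4 member known as a marker of pericytes, was near the bottom of the signal range. Its 4 probe sets had signals of at most 36.8 on the NKT-modulated arrays and at most 42 on the immature arrays. Their log2 differences were -0.24 ± 0.26, -0.54 ± 0.33, 0.05 ± 0.28 and 0.24 ± 0.20, and 0 of 4 were past the threshold. At these signals neither a difference nor its absence could be shown.

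Both measured R12 members were lower. Rgs14, which binds Gi alpha subunits through a second domain as well, had signals of 408.6 and 511.4 on the NKT-modulated arrays, against 1032 and 1149 on the immature arrays. Its log2 difference was -1.06 ± 0.14, a 2.09-fold lower level. Rgs10, one of the smallest RGS proteins and known from microglia and macrophages, had signals of 1540 and 1526 on the NKT-modulated arrays, against 2362 and 2380 on the immature arrays. Its log2 difference was -0.56 ± 0.09, a 1.48-fold lower level. Neither gene's groups overlapped, and the call of Rgs10 was lost without immature replicate 1 or when NKT-modulated replicate 1 or 2 was left out.

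Rgs19, the RZ member first described as GAIP, a partner of the Gi alpha subunit encoded by Gnai3, had signals of 1771 and 1643 on the NKT-modulated arrays, against 2453 and 3205 on the immature arrays. A second probe set, of a kind that can also read related sequences, had signals of 1363 and 1305 on the NKT-modulated arrays, against 1773 and 2579 on the immature arrays. The log2 differences were -0.66 ± 0.11 and -0.61 ± 0.14, with no overlap of the groups on either. The call on the brighter probe set was lost when NKT-modulated replicate 1 or 2 was left out, and that on the other probe set also without immature replicate 2; it held in 3 of 11 alternatives.

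**Figure D3:**
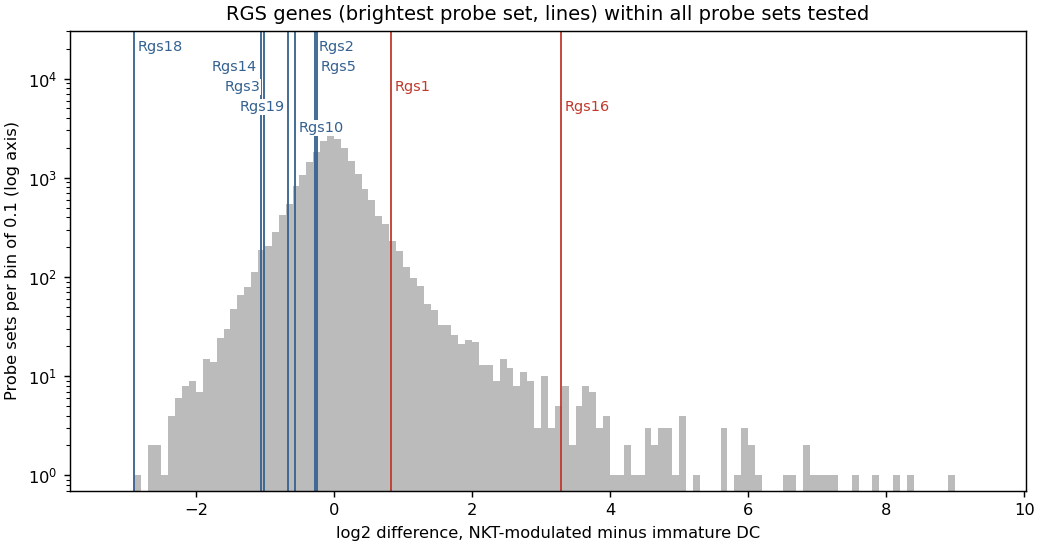
Number of probe sets (log axis) by log2 difference, NKT-modulated minus immature DC, over all 22626 probe sets tested, with a line for the brightest probe set of each RGS gene, red where higher and blue where lower in NKT-modulated DC. Rgs18 stands at the left end of the distribution, 6 genes lie between -1.06 and -0.24, and Rgs1 and Rgs16 stand to the right at 0.83 and 3.29.

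Of 8 other RGS family genes with a probe set, 0 were called in either direction by limma, 0 had an unadjusted p under 0.05, and 6 had signals under 100 on all arrays. Rgs11, of the R7 subfamily of neurons and retina, had the smallest p among them, with signals of 12.1 and 74 in NKT-modulated DC against 90.3 and 120.9 in immature DC. Its log2 difference was -1.18 ± 0.57 (adjusted p = 0.274, limma). It became a call without NKT-modulated replicate 2 (adjusted p = 0.0277; its alternatives ranged up to 0.662).

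Among 14 G alpha subunits on the arrays 2 rose and 0 fell, a share near the 12.9% of all genes called. Their median log2 difference was -0.09, and 7 of the 14 had signals under 100 on all arrays. Gnai3, a Gi alpha subunit, had signals of 7255 and 6884 in NKT-modulated DC, against 4738 and 5718 in immature DC, and rose by 0.39 ± 0.09 (adjusted p = 0.0404, limma). Gna13, another alpha subunit, had signals of 1646 and 2167 in NKT-modulated DC, against 1278 and 1202 in immature DC, and rose by 0.70 ± 0.16 (adjusted p = 0.0463, limma). Both calls were near the threshold, and 5 of 11 alternatives ended each. The call of Gnai3 was lost without immature replicate 1 or when NKT-modulated replicate 1 or 2 was left out, and that of Gna13 without immature replicate 1, immature replicate 2 or NKT-modulated replicate 2. Of 13 beta and gamma subunits, Gng12 rose by 0.63 ± 0.08 and Gng10 fell by 0.54 ± 0.09 (adjusted p = 0.00619 and 0.0135, limma). The Gng12 call was lost without NKT-modulated replicate 2, and the Gng10 call without immature replicate 2 or NKT-modulated replicate 1.

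**Figure D4:**
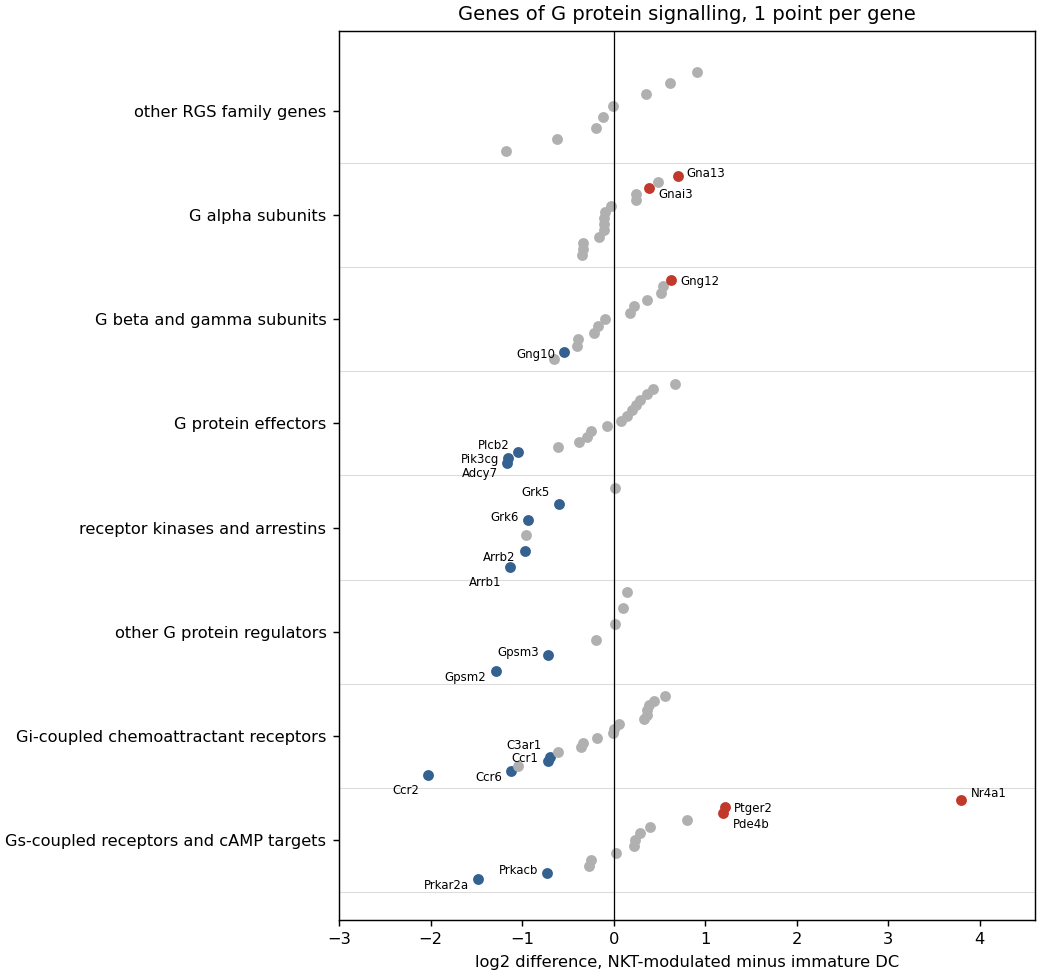
Log2 difference, NKT-modulated minus immature DC, of each measured gene of 8 lists of G protein signalling (1 point per gene, brightest probe set); named red points rose and named blue points fell past the threshold, and grey points did not pass. Among receptor kinases and arrestins 4 of 6 points are blue and none is red.

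Of 16 measured G protein effectors 3 fell and 0 rose, with a median log2 difference of 0.01. Adcy7, an adenylyl cyclase, the enzyme class that makes cAMP, had signals of 2242 and 2606 in NKT-modulated DC, against 5313 and 5472 in immature DC. Pik3cg, the catalytic subunit of the phosphoinositide 3-kinase that G beta-gamma activates in leukocytes, had signals of 567.0 and 543.6 in NKT-modulated DC, against 1315 and 1457 in immature DC. In both genes the NKT-modulated arrays lay far below every immature array, with log2 differences of -1.16 ± 0.11 and -1.15 ± 0.09 (adjusted p = 0.00182 and 0.00124, limma).

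Receptor kinases and arrestins, which uncouple activated receptors from G proteins, showed 4 falls and 0 rises among 6 measured, with a median log2 difference of -0.95. Arrb1 and Arrb2 encode both non-visual arrestins. Arrb1 had signals of 544.1 and 491.3 in NKT-modulated DC, against 1189 and 1370 in immature DC, and Arrb2 1152 and 1176 against 2299 and 2543. They fell by 1.13 ± 0.10 and 0.97 ± 0.08 (adjusted p = 0.00168 and 0.0015, limma), and both calls held in 11 of 11 alternatives. Of 6 measured other regulators of G proteins 2 fell and 0 rose. Gpsm3, a leukocyte protein that binds Gi alpha subunits, fell by 0.72 ± 0.11 (adjusted p = 0.00975, limma). Gpsm2, a relative that also orients the mitotic spindle, fell by 1.29 ± 0.30 (adjusted p = 0.0464, limma). The Gpsm3 call was lost when NKT-modulated replicate 1 or 2 was left out, and the Gpsm2 call without immature replicate 1, immature replicate 2 or NKT-modulated replicate 2.

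Among 18 Gi-coupled chemoattractant receptors, the class whose signals RGS proteins are best known to limit in leukocytes, 4 fell and 0 rose, with a median of -0.10; 1 rose after cyclic loess and 2 after a shift to a common median. Ccr2, a receptor for monocyte-attracting chemokines, had signals of 176.3 and 245.7 in NKT-modulated DC, against 833.2 and 1232 in immature DC. Ccr1 had 3188 and 3451 against 5280 and 5534 in immature DC. They fell by 2.03 ± 0.21 and 0.72 ± 0.09 (adjusted p = 0.00285 and 0.00541, limma), Ccr1 not without the intensity trend (adjusted p = 0.0705, in a range over its alternatives that begins at 9.52e-04). Of 13 Gs-coupled receptors and cAMP targets 3 rose and 2 fell. Nr4a1, a nuclear receptor gene that cAMP and many other signals induce, rose by 3.80 ± 0.16, and Pde4b, a phosphodiesterase that degrades cAMP, rose by 1.20 ± 0.11, with signals of 2640 and 2471 in NKT-modulated DC against 1185 and 1139 in immature DC. Prkar2a and Prkacb, subunits of the cAMP-dependent kinase, fell by 1.48 ± 0.34 and 0.73 ± 0.16 (adjusted p = 0.0424 and 0.0422, limma). Prkar2a was dim, with signals of 5.63 and 20.1 in NKT-modulated DC against 64.4 and 62.5 in immature DC. With a pseudocount of 1 it was not called. The Prkacb call was lost when any of the 4 arrays was left out, and the Prkar2a call without immature replicate 1, immature replicate 2 or NKT-modulated replicate 1. Beside all these lists stand the 12.9% of all genes called and the 10 of 15 T and NKT cell markers that rose. The part of T lineage RNA in the lists was not tested.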

How the data were processed

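The deposited table holds a linear intensity for each of 22690 probe sets on each array. The authors analysed the array images with GCOS, per the submitters' processing notes; the sources used here give no version, summary method or scaling. Log transformation is named in the design text, but the linear values do not show it, and an array type larger than this table is named too. The labelling kit it names differs from that in the sample labels. Detection calls were not used, and precision is limited by the number of arrays.

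The 64 control probe sets were left out. Signals became log2(signal + 16) and were quantile normalized, and this scale understates differences of dim genes. The comparison used limma 3.58.1 (R 4.3.3): lmFit, then eBayes with a trend of variance on intensity (two-sided tests, Benjamini-Hochberg over 22626 probe sets, threshold 0.05), with 2 residual and 4.13 prior degrees of freedom. The steps were tested on simulated data. Its spread followed the trend with signal and the prior degrees of freedom estimated from these arrays, so it could not test that variance model. Of the probe sets, 20380 had 1 symbol in the platform annotation, 691 had several and 1555 were unnamed here. Symbols were updated by gene ID through RefSeq, and each gene was represented by its brightest probe set. Genes of other lists were named by a rule: up to 2 called rises and 2 called falls with the smallest p, otherwise the gene with the smallest p. The members and lists were chosen with earlier results of these data known. Alternatives were other pseudocounts and normalizations, no variance trend, a filter on dim probe sets, each array left out, and the mean over a gene's probe sets.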

Additional observations from a re-analysis of the deposited data

How the results depend on the processing

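No paired analysis was possible because the sample titles of the 2 groups share no numbers. Replicates 1 and 2 here only number the arrays within each group. Without the intensity trend of the variance, 1045 of all probe sets in place of 2501, 2 of the 9 RGS genes in place of 7 and 22 of the genes on the other lists in place of 41 were called; the cause was not tested. Leaving out each array in turn gave 1070 to 1401 called probe sets, 4 to 7 called RGS genes and 24 to 30 called genes on the other lists; with 1 array left in a group, that array is assumed to vary like the others. With the other pseudocounts, normalizations and the filter on dim probe sets, 7 RGS genes were called each time, 2 higher and 5 lower. The share of all calls that were higher was 48.5%, and 36.6% without further normalization, 58.3% after a shift to a common median, 59.8% without the trend and 44.5% among probe sets with a mean signal of at least 100. The shift to a common median moved the median of all differences from -0.03 to 0.08. Of 219 alternative values of RGS probe sets, 39 moved by more than 1 SE and no called one turned its sign. Of the alternative values of named genes on the other lists, 251 kept their side of the threshold, 62 lost it, 1 gained it and 0 turned. Another scaling ended the calls of Gnai3, Ngp and S100a8 (no further normalization), of Gng10, Cd14 and Fcgr1 (common median) and of Prkacb (cyclic loess). The depth limit is the low signal of Rgs5 and of 2 Rgs3 probe sets.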

Other observations

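The region of Rgs18 was read after the values were seen. In the gene order of RefSeq on GRCm38.p6, 5 consecutive coding genes of chromosome 1 are RGS genes, in the order Rgs2, Rgs13, Rgs1, Rgs21 and Rgs18, of which 3 were measured here. Of these, Rgs1 was at 0.83 ± 0.09 and Rgs18 at -2.90 ± 0.17 (log2 difference ± SE, n = 2 in each group). Rgs2, at -0.27 ± 0.10, did not pass the threshold on its brightest probe set, nor in any of 11 alternatives, which ran from -0.42 to -0.09. Of the 4 coding genes on each side of the cluster, 7 were measured and 1 was called by limma, a share near the 12.9% of all genes called. That gene was Ptgs2, the inducible cyclooxygenase, with signals of 1325 and 894.4 in NKT-modulated DC against 79.4 and 68.7 in immature DC. Uchl5, a deubiquitinase, lies next to Rgs2 and had signals of 903.2 and 927.1 in NKT-modulated DC against 1125 and 1422 in immature DC (log2 difference -0.34 ± 0.10, adjusted p = 0.0949, limma). Pla2g4a, the phospholipase that releases arachidonic acid, lies beyond Rgs18 and had a log2 difference of 0.19 ± 0.08 (adjusted p = 0.233, limma).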
